A study of Rattus norvegicus with 20 samples.

Results

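Maresin 1 (MaR1) was compared with vehicle in the kidney cortex of 10 male hypertensive rats, 5 in each group. All animals carried the genotype label WT and the labels name no strain. A telemeter was implanted at 8 weeks of age, and every rat then ate a diet with 4% NaCl for 3 weeks. Over those weeks a subcutaneous osmotic minipump delivered vehicle to rats RB030 to RB034 and MaR1, at up to 1.3 µg/kg/day, to rats RB035 to RB039. There was no group on normal salt, so both groups share the salt load. Of the 30560 genes in the table, the comparison covers the 12446 with a mean of at least 1 FPKM (fragment counts divided by gene length and by library size) over these 10 of the 20 libraries of the study. Each library is 1 piece of cortex from 1 rat.

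Maresin 1 is a lipid mediator that macrophages make from docosahexaenoic acid, and it is known for promoting the resolution of inflammation. The cortex holds glomeruli, proximal tubules and distal convoluted tubules. The medulla beneath it holds thin limbs and collecting ducts that concentrate urine, and the renal pelvis, lined by urothelium and bordered by sinus fat, lies deeper still. A piece of cortex cut deeper therefore carries transcripts of those tissues. In such bulk tissue, fewer cells of a type and less RNA per cell cannot be told apart. The question asked here was which differences between MaR1 and vehicle kidneys remain once the medulla, urothelium and fat content of each piece is allowed for.

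The libraries were of similar depth, with means of 24.8 ± 3.83 M (mega) fragments in vehicle kidneys and 24.4 ± 2.11 M in MaR1 kidneys (SD, n = 5 each). The 45 pairs of kidney libraries differed by 11.6 or more in chi-square per degree of freedom, so none was a copy of another. The proximal tubule markers summed to 7851 to 13045 FPKM, but with no library of medulla to compare, this level does not test the cortex label. The vehicle kidney RB030 stood apart in its injury genes, which summed to 3492 FPKM against 1240 to 2250 FPKM in the other vehicle kidneys.

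The MaR1 pieces held more transcripts of medulla, urothelium and fat than the vehicle pieces. Content was scored per kidney as the mean of log2(FPKM + 0.5) over the markers of a tissue. The medulla score, over 12 genes of the inner medulla and thin limb, was 1.22, 1.14, 0.92, 1.17 and 1.24 in vehicle rats RB030 to RB034. It was 1.85, 1.94, 2.60, 2.46 and 1.45 in MaR1 rats RB035 to RB039. Every MaR1 kidney lay above every vehicle kidney, with RB039 nearest to them. A marker had to reach 1 FPKM in only 1 kidney, so it could enter through the MaR1 kidneys alone. The urea transporter gene Slc14a2 did, at 3.83 FPKM in RB037 and 0 to 0.10 FPKM with vehicle. The gap between the groups therefore describes and does not test. The gap was smaller in the summed level of the same markers, where RB039 stood at 69.8 FPKM within the vehicle range of 54.4 to 128 FPKM. The urothelium score, over 10 genes, was -0.62 to -0.50 in 4 vehicle kidneys and 0.39 in RB034. In the MaR1 kidneys it was -0.43, 1.46, -0.22, 2.25 and 3.28. So RB036, RB038 and RB039 carried urothelial transcripts well above the rest, while RB035 and RB037 were at the vehicle level. Upk1a, a uroplakin of the urothelial surface, stood at 4.33, 10.99 and 23.8 FPKM in those 3 kidneys and at 0.25 and 0.43 FPKM in RB035 and RB037. The fat score, over 15 adipocyte genes, was 0.23 to 0.55 with vehicle and 0.47, 2.12, 0.61, 0.58 and 4.96 with MaR1. RB039 held most of the fat: Adipoq, the gene of the adipocyte hormone adiponectin, was at 120 FPKM there, 13.2 FPKM in RB036 and 2.77 to 4.78 FPKM in the other 8 kidneys. The 3 contents therefore did not move together from piece to piece.

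**Figure D1:**
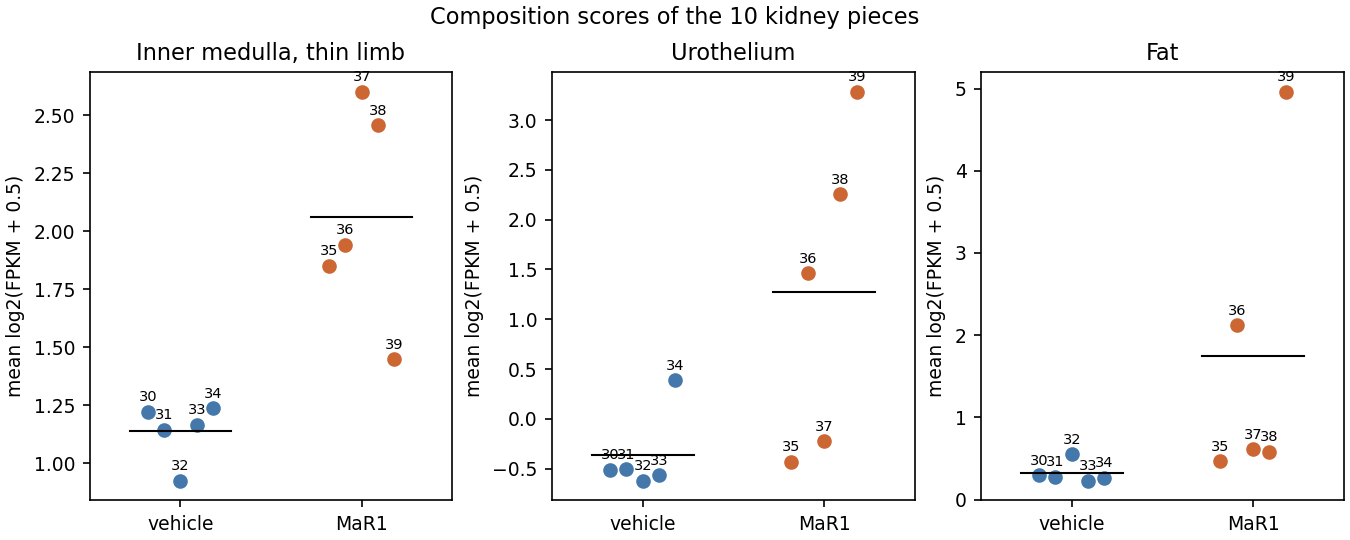
Composition scores of the 10 kidney pieces, 1 point per kidney labelled with the last digits of the rat's number, with the mean of log2(FPKM + 0.5) over the markers on the vertical axis and horizontal lines for group means. The medulla scores of the groups do not overlap, and RB039 has the highest urothelium (3.28) and fat (4.96) scores. Markers could enter a score through the MaR1 kidneys alone.

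Markers of other nephron segments differed along with the medulla score. The podocyte markers summed to 121 to 170 FPKM with vehicle and to 99.3, 116, 90.1, 86.1 and 131 FPKM with MaR1. The markers of the distal convoluted and connecting tubule were lowest in RB037 and RB038, at 254 and 236 FPKM, and highest in RB039, at 682 FPKM. Those of the thick ascending limb, which crosses the outer medulla, were highest in RB037 and RB038, at 2200 and 2119 FPKM. RB039 was the lowest MaR1 kidney for them, at 1033 FPKM, inside the vehicle range of 755 to 1501 FPKM. The macrophage markers summed to 172 to 318 FPKM with vehicle and 180 to 322 FPKM with MaR1, so the groups overlapped.

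In the plain comparison of the groups, 0 of 12446 genes (0%) passed limma's adjusted p of 0.05, and the smallest adjusted p was 0.298. At an unadjusted p under 0.05 there were 840 genes (6.75%), 408 higher (3.28%) and 432 lower (3.47%) with MaR1. The groups did not overlap in 153 genes (1.23%). Fold changes below are MaR1 over vehicle in log2(FPKM + 0.5), ± SE, which understates the change of genes at low level.

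Cldn23, which encodes a tight junction claudin (chromosome 16, 56413381 to 56415523 as the file gives it), was at 0.64, 1.08, 0.56, 1.05 and 1.26 FPKM in the vehicle kidneys. It was at 3.14, 1.95, 3.45, 4.20 and 2.67 FPKM in the MaR1 kidneys. The groups did not overlap, and the log2 fold change was 1.33 ± 0.19 (limma adjusted p = 0.298). Slc14a1, a urea transporter gene of the descending vasa recta, was at 0.12 to 0.49 FPKM with vehicle and at 0.85, 1.05, 2.57, 2.93 and 2.89 FPKM with MaR1. Its level was highest in RB037, RB038 and RB039. Wnt7b, a secreted Wnt ligand of the collecting duct that shapes the medulla in development, was at 0.17 to 0.75 FPKM with vehicle and 1.66, 1.81, 4.14, 2.42 and 1.32 FPKM with MaR1, highest in RB037. Igf1, whose product is a growth factor carried by the Igfbp proteins, was at 2.35 to 3.41 FPKM with vehicle. In the MaR1 kidneys it was at 4.88, 5.14, 7.75, 4.94 and 8.96 FPKM, with RB037 and RB039 highest. Ly6al was at 0.43 to 1.87 FPKM with vehicle and 2.59 to 4.38 FPKM with MaR1. Tmem184a, Qsox1 (a secreted enzyme that forms disulfide bonds) and Tspan12 (a tetraspanin) had log2 fold changes of 0.82 ± 0.15, 0.57 ± 0.11 and 0.47 ± 0.09. Their groups did not overlap either.

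Among genes lower with MaR1, Col4a3, which encodes a type IV collagen chain found beneath podocytes, was at 20.9, 22.0, 22.8, 21.8 and 19.1 FPKM with vehicle and 16.3, 15.9, 15.2, 16.3 and 19.1 FPKM with MaR1. RB039 was the MaR1 kidney nearest to vehicle. Npas2, an activator of the circadian clock, was at 2.02, 1.29, 2.06, 1.89 and 0.79 FPKM with vehicle and at 0.70, 0.60, 0.31, 0.33 and 0.77 FPKM with MaR1, so that RB034 and RB039 nearly met. Psph, the last enzyme of serine synthesis, was at 27.7 to 38.4 FPKM with vehicle and lowest in RB037 and RB038, at 15.7 and 16.5 FPKM. Tnfsf10, the gene of the death ligand TRAIL, was at 11.8 to 17.1 FPKM with vehicle and 8.54 to 10.6 FPKM with MaR1. Msc, a transcription factor gene, was at 1.37 to 2.32 FPKM with vehicle and 0.74 to 1.45 FPKM with MaR1, with RB036 inside the vehicle range. Cyp24a1, which breaks down active vitamin D in the proximal tubule, was at 37.5, 21.5, 33.7, 27.4 and 37.6 FPKM with vehicle and at 11.3, 24.1, 20.2, 14.8 and 21.5 FPKM with MaR1. RB036 lay inside the vehicle range and the other MaR1 kidneys at or below its lower end.

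Many cortical genes tracked the medulla score from kidney to kidney. With group and medulla score in the fit, 401 genes (3.22%) followed the score at an adjusted limma p under 0.05, 87 rising and 314 falling with it. Among the 314 were 5 of 10 podocyte markers, 9 of 17 proximal tubule markers and 6 of 9 markers of the distal convoluted and connecting tubule. Slc5a2, the glucose transporter of the early proximal tubule, was at 131 to 164 FPKM with vehicle and 110, 117, 70.3, 63.1 and 195 FPKM with MaR1. It fell by 1.31 in log2 per unit of medulla score (adjusted p = 0.00667). Nphs1, which encodes nephrin of the podocyte slit diaphragm, was at 7.79 to 10.9 FPKM with vehicle and 5.83, 7.43, 3.84, 4.58 and 8.83 FPKM with MaR1, with a slope of -0.93 (adjusted p = 0.0129). Slc12a3, the thiazide-sensitive sodium chloride cotransporter, had a slope of -1.27 (adjusted p = 0.0118) and was lowest in RB037 and RB038, at 49.4 and 45.4 FPKM. In all 3 genes RB039, the MaR1 piece with the least medulla, was within or above the vehicle range. The number of followers rested on single kidneys: it was 0 without RB039, 28 without RB038, 81 without RB037, 189 without RB036, 212 without RB033 and 643 without RB030. The fat score was followed by 313 genes (2.51%), 244 rising with it, among them 11 of 13 adipocyte markers, and by 3 genes once RB039 was left out. The urothelium score was followed by 9 genes.

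**Figure D2:**
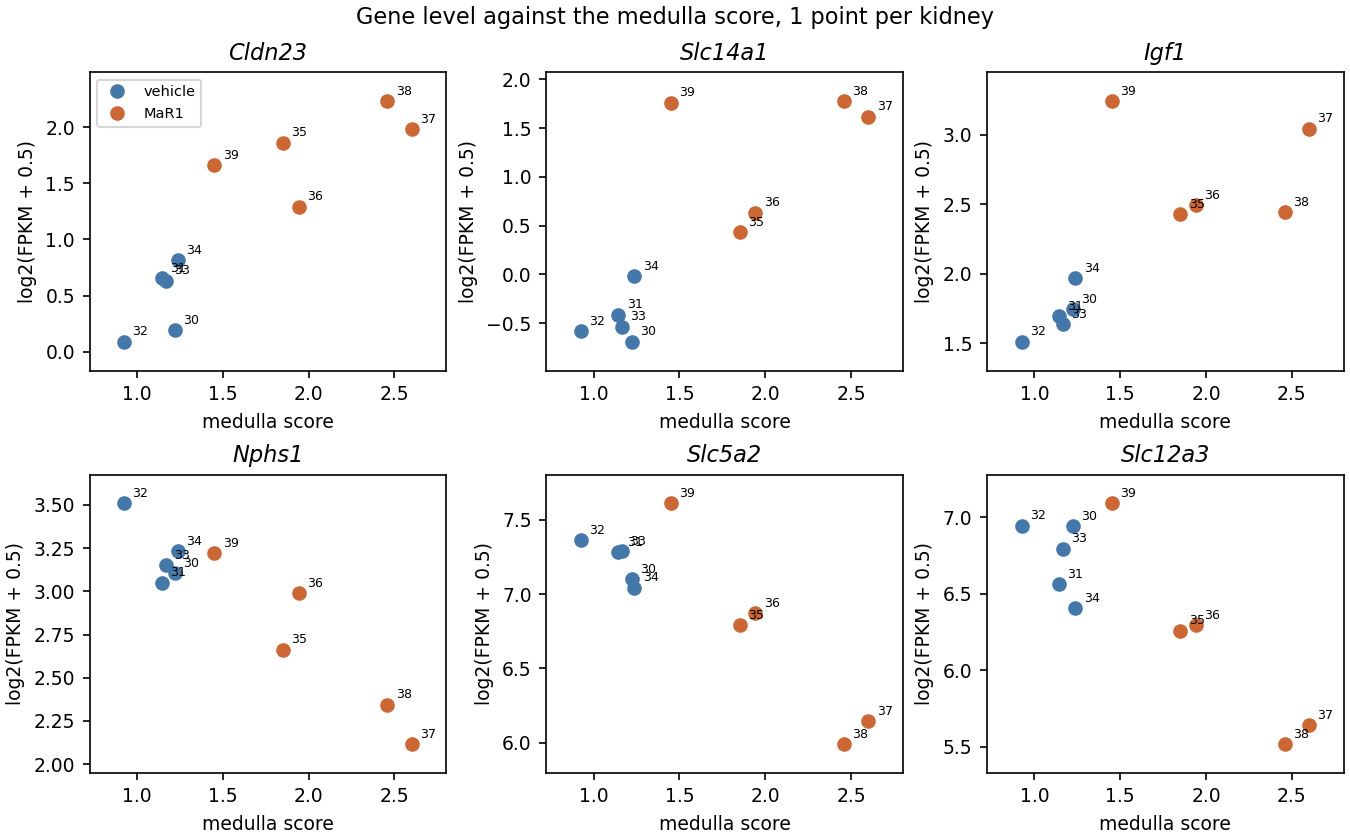
Levels of 6 genes, as log2(FPKM + 0.5), against the medulla score, 1 point per kidney labelled with the last digits of the rat's number. Nphs1, Slc5a2 and Slc12a3 are lowest in RB037 and RB038, the pieces with the highest medulla scores (2.60 and 2.46), and RB039 lies near the vehicle kidneys for these 3 genes but with the MaR1 kidneys for Cldn23, Slc14a1 and Igf1.

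With all 3 scores in the fit, limma called 0 genes, and 123 (0.988%) were at an unadjusted p under 0.05, 61 higher and 62 lower. That is below the share of 0.05 expected with no difference. The count depended on how the scores were made: with the log2 of the summed marker levels, 3 genes were called and 3973 were at an unadjusted p under 0.05, 1352 higher and 2621 lower. The design sets a limit here. The 3 scores together account for 91.1% of the variance of the treatment label, the medulla score alone for 69.2%, and the median SE of a fold change grew from 0.103 to 0.321. Most of the treatment difference and the content of the pieces cannot be told apart in these kidneys. With single scores, limma called 0 genes beside the medulla score (918 at an unadjusted p under 0.05) and 0 beside the urothelium score (1218). Beside the fat score alone it called 478 (3.84%), 142 higher and 336 lower. Of those 478, 238 also followed the medulla score in the same 10 kidneys. They were 49.8% of the calls, beside 3.22% of all genes, and 59.4% of the followers. With medulla and fat scores together limma called 0 genes, 101 being at an unadjusted p under 0.05. The median SE was then 0.313, against 0.111 beside the fat score alone. The 478 fell to 6 without RB038, 10 without RB033, 14 without RB039, 17 without RB032, 20 without RB037 and 279 without RB031, and became 782 without RB030. The plain comparison without RB036 and RB039, the pieces richest in fat, called 284 genes, of which 273 were among the 478, and 0 once the medulla score was added. This alternative was chosen after seeing the data.

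A gene was counted as remaining where its estimate with the 3 scores kept its sign and at least 50% of its size. The rule sets no upper bound on the size, and the median SE grew from 0.103 to 0.321. A gene with a plain estimate near 0 can thus remain through noise. The share among all genes is therefore no measure of differences that hold. Of the 840 genes at an unadjusted p under 0.05, 351 (41.8%) remained, beside 53.2% of all genes tested, and 292 had the opposite sign. Only 19 were at an unadjusted p under 0.05 with the same sign in both fits.

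The fold changes of several genes on the higher side shrank to near 0 or below it. Igf1 went from 1.02 ± 0.17 to -0.12 ± 0.39 with the 3 scores and was 1.11 with the medulla score alone. Slc14a1 went from 1.69 ± 0.29 to -0.28 ± 0.67 and was 1.31 with the medulla score alone. Wnt7b went from 1.60 ± 0.27 to 0.21 ± 0.69. Tmem184a went from 0.82 ± 0.15 to -0.01 ± 0.43. On the lower side, Npas2 went from -1.002 ± 0.22 to -0.21 ± 0.62, Psph from -0.63 ± 0.15 to 0.12 ± 0.24 and Cotl1, an actin-binding protein gene, from -0.39 ± 0.09 to 0.08 ± 0.24. The 95% intervals of all these estimates with the scores held 0. The signs of 6 of these 7 genes, all but Cotl1, turned on leaving out single kidneys. Slc14a1 was at -1.87 without RB035 and 2.11 without RB037, Igf1 at -1.94 and 0.88, and Wnt7b at -0.75 and 1.81. Npas2 was at 0.84 without RB035 and -1.69 without RB037, and Psph at 1.01 and -0.30. Tmem184a was at 1.61 without RB037 and Cotl1 at 0.51 without RB035.

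Other genes kept at least 50% of their estimate in the fit of all 10 kidneys, with wider errors. Cldn23 stayed at 1.02 ± 0.60, with a 95% interval of -0.36 to 2.40. Without RB035 that estimate was -1.36, so its sign rests on that kidney. Ly6al stayed at 0.99 ± 0.89, Col4a3 at -0.25 ± 0.23, Tnfsf10 at -0.39 ± 0.35, Msc at -0.97 ± 0.56 and Atp5mk, a small subunit gene of ATP synthase, at -0.75 ± 0.59. Each of these intervals held 0 as well. Their sizes rested on single kidneys. Ly6al was at 0.46 without RB030 and 2.68 without RB037, and Msc at -0.24 without RB035 and -2.80 without RB037. Col4a3 was at -0.07 without RB035, Tnfsf10 at -0.17 without RB030 and -1.20 without RB037, and Atp5mk at -0.15 without RB037 and -1.17 without RB035. Cyp24a1 moved from -0.78 ± 0.22 to -1.999 ± 0.64 (95% interval -3.46 to -0.54) and was -0.73 without RB035 and 0.46 with library weights. Pde4c, a cyclic AMP phosphodiesterase gene, moved from 0.27 ± 0.07 to 0.57 ± 0.21 (95% interval 0.10 to 1.04), and was 0.24 without RB035. The file gives 2 neighbouring genes of that symbol, and this is the one at 18711703 to 18715496 on chromosome 16. Genes were named in part by their p with the scores, so an interval without 0 does not test a difference.

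**Figure D3:**
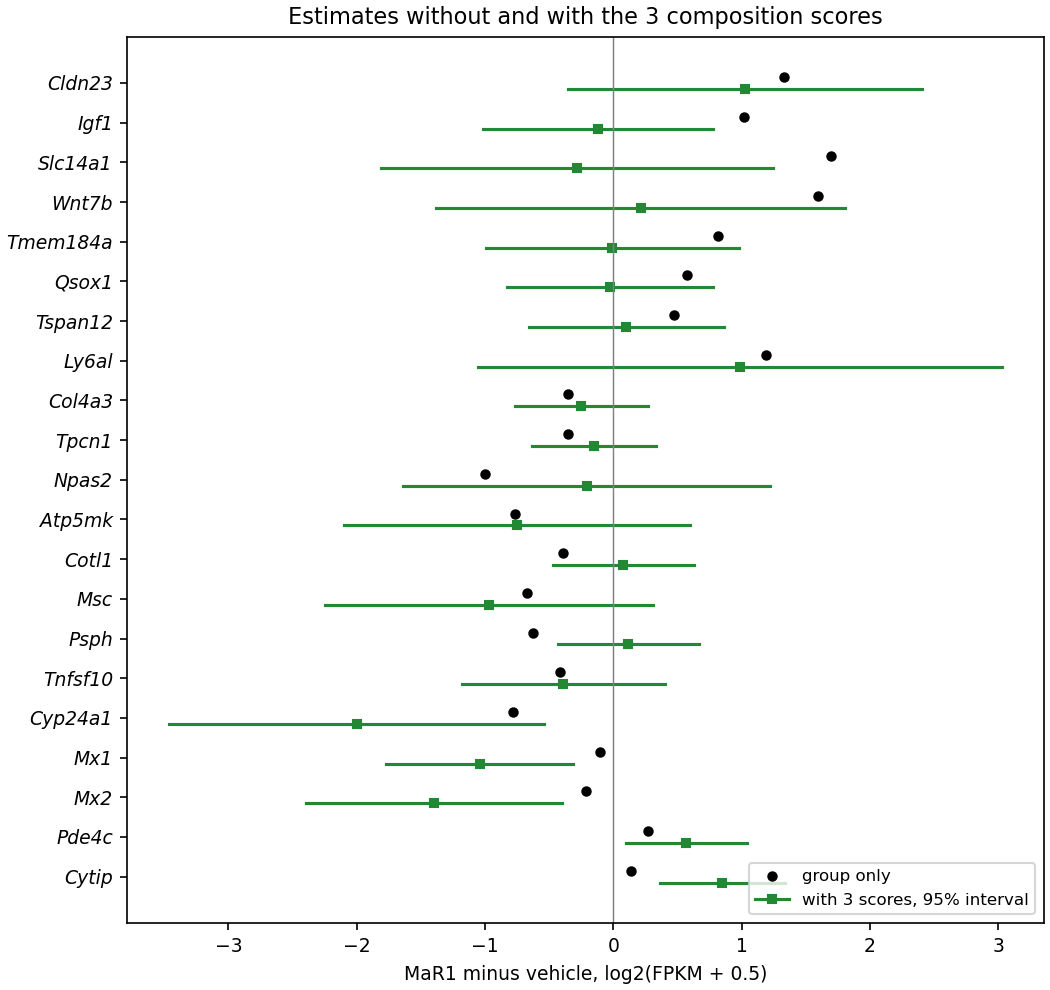
MaR1 minus vehicle in log2(FPKM + 0.5) per gene, with black points for the comparison of groups and green squares with 95% intervals for the fit with 3 scores. The intervals of Igf1, Slc14a1, Wnt7b and Cldn23 hold 0, while those of Cyp24a1, Mx1, Mx2, Pde4c and Cytip do not, though no gene passed the adjusted test. Genes were named in part by their p in this fit, so intervals without 0 among them do not test a difference. With summed markers as scores the estimates of Mx1 and Mx2 had the opposite sign.

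Further genes had their smallest p only with the scores, and their groups overlapped. As they were named by that p, their estimates describe and do not test. Mx1 and Mx2, antiviral GTPases of the interferon response, went from -0.11 ± 0.15 and -0.22 ± 0.17 to -1.04 ± 0.32 and -1.40 ± 0.43. Without RB037 the estimate of Mx2 was -0.42, and without RB035 it was -2.47. With the log2 of the summed marker levels as scores, Mx1 was at 0.17 and Mx2 at 0.038, the opposite sign. Mx1 was at 3.39 to 4.85 FPKM with vehicle and 3.16, 3.49, 5.47, 4.76 and 3.07 FPKM with MaR1, highest in the pieces with most medulla, and its slope on the medulla score was 0.67 (adjusted p = 0.0407). Cytip, a regulator of leukocyte adhesion, went from 0.14 ± 0.15 to 0.85 ± 0.21, and was -0.26 with the medulla score alone. Tiprl went from 0.03 ± 0.08 to 0.63 ± 0.19. Trpv1, the capsaicin receptor, went from -0.23 ± 0.14 to 0.86 ± 0.28 and Tnfrsf11b, the gene of osteoprotegerin, from 0.23 ± 0.31 to 1.86 ± 0.68. Angptl7, Sh3bp4, Cyp27a1 and Pdgfa, a platelet-derived growth factor gene, had estimates of -1.11 ± 0.30, -0.82 ± 0.23, -0.75 ± 0.24 and -0.60 ± 0.19 with the scores and of 0.00 to 0.12 without them. With summed markers as scores, Trpv1, Tnfrsf11b, Sh3bp4, Cyp27a1 and Pdgfa had the opposite sign, while Cytip, Tiprl and Angptl7 kept theirs. The smallest adjusted limma p of the fit with 3 scores was above 0.99.

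Gene lists are given by counts and medians beside all 12446 genes, of which 6227 were higher with MaR1 in the plain comparison and 6971 with the 3 scores. The medians of all genes were 0.00022 and 0.043. No member of any list was called in either fit. The podocyte list had 9 of 10 members lower in the plain comparison, with a median of -0.33, and a median of -0.047 with the scores. Of 17 proximal tubule members 15 were lower in the plain comparison and 14 were higher with the scores. The medians of principal and intercalated cells of the collecting duct lay further from 0 with the scores, at 0.13 against 0.095 and at -0.088 against -0.052. The list of epithelial junction and keratin genes of the distal nephron and urothelium had 17 of 20 members higher, 9 of them with groups that did not overlap (1.23% of all genes), and 7 of 20 higher with the scores. This list, like the others, was written with earlier results of these data known, so its counts describe and do not test.

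Both clock lists pointed one way in the plain comparison. In the circadian clock, activators (Bmal1, Clock, Npas2) switch on their own repressors (the Per and Cry genes, Ciart, the Nr1d genes) through E-boxes, and the output factors Dbp and Tef act through D-boxes. All 13 repressors and co-regulated targets were higher with MaR1, 7 at an unadjusted p under 0.05 (3.28% of all genes), with a median of 0.34. All 5 tested members of the activator list were lower, with a median of -0.36. That list is mixed, as it also holds Rora and Nfil3, which is a repressor at D-boxes. Ciart was at 2.10, 1.94, 1.92, 1.66 and 4.97 FPKM with vehicle and 3.17, 5.51, 7.72, 4.34 and 6.21 FPKM with MaR1. The vehicle kidney RB034 lay among the MaR1 kidneys for Ciart, as it did nearly for Npas2. With the scores 5 of 13 repressors were higher and the median was -0.084, and Ciart went from 1.00 ± 0.27 to -0.78 ± 0.82. Rora, which encodes a nuclear receptor of the clock that also binds Maresin 1, was at 4.68 to 5.85 FPKM with vehicle and 3.89 to 6.08 FPKM with MaR1. Its estimates were -0.04 ± 0.12 and 0.12 ± 0.29. The hour at which each rat was killed is not in the labels, and its part in the clock values was not tested.

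For 3 of these clock genes, 1 for each kind of element, the promoter is printed from RefSeq with capitals for the E-box (CACGTG), the D-box (TTANGTAA) and the core of the ROR element (TAGGTCA), searched on both strands from 250 bases before to 50 after the start.
Ciart promoter, GRCr8 chr2:186112197-186112496, - strand: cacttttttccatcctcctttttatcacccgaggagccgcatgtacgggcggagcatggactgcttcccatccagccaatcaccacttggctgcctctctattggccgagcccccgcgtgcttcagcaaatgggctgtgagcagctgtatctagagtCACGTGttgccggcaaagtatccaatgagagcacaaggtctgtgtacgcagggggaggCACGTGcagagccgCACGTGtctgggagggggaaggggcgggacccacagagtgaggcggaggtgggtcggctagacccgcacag
Per2 promoter, GRCr8 chr9:99496944-99497243, - strand: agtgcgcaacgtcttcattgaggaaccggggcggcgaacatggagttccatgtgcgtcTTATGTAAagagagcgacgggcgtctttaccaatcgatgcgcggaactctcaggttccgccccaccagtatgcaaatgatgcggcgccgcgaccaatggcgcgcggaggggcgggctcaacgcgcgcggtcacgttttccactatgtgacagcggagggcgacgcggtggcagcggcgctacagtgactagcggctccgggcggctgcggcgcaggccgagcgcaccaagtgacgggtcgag
Bmal1 promoter, GRCr8 chr1:176766078-176766377, + strand: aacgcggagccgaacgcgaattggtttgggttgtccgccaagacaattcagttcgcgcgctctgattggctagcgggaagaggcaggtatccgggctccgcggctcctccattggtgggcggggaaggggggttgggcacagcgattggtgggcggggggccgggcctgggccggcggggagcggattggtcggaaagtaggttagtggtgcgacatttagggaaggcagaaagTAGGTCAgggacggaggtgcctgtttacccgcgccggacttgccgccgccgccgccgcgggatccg
Ciart held 3 E-boxes, Per2 a D-box and Bmal1 a ROR core. RefSeq promoters were found for 11 of the 13 repressors and targets, of which 4 held an E-box (36.4%) and 1 a D-box (9.09%). Among all 33469 promoters the shares were 6.42% for the E-box, 2.24% for the D-box and 2.63% for the ROR core. Of 5 members of the activator list with a promoter, Nfil3 among them, 1 held a ROR core and 0 an E-box. A match is a run of letters and not a shown binding site.

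All 15 tested genes of antigen presentation were lower in both fits, with medians of -0.21 and -0.57, and 14 remained, beside 53.2% of all genes. In the plain comparison 3 of them were lower at an unadjusted p under 0.05 (3.47% of all genes). With the scores 0 were (0.988% of all genes in either direction), and their median SE was 0.44. RT1-DMa and RT1-DMb, which load peptides onto class II molecules, were at 15.7 to 23.4 and 39.3 to 52.0 FPKM with vehicle and at 13.7 to 17.8 and 32.3 to 40.5 FPKM with MaR1. Their estimates went from -0.22 ± 0.11 and -0.27 ± 0.09 to -0.75 ± 0.34 and -0.59 ± 0.29. Without RB030, the vehicle kidney with the highest Havcr1 level, the plain estimates were -0.13 and -0.22 and those with the scores -0.55 and -0.47. Without RB037 those with the scores were -1.78 and -1.15. With the log2 of the summed marker levels as scores they had the opposite sign, at 0.081 and 0.096. Of the interferon genes 12 of 18 were lower in the plain comparison and 17 of 18 with the scores, 5 of them at an unadjusted p under 0.05 (0.988% of all genes). Cxcl10, an interferon-induced chemokine, was at 14.9 FPKM in RB030, 4.83 to 10.3 FPKM in the other vehicle kidneys and 4.84 to 7.45 FPKM with MaR1. In the list of cytokines, chemokines and adhesion molecules, 15 of 18 were lower in both fits, with medians of -0.16 and -0.17. Macrophage markers were higher in 9 of 10 cases without the scores and in 2 of 10 with them. C1qc went from 0.27 ± 0.19 to -0.77 ± 0.50, and was 1.02 with summed markers. Of the lymphocyte markers only 3 of 12 were tested, with 2 higher without the scores and 3 with them and medians of 0.11 and 0.60.

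In none of 17 tested injury genes were the groups apart (0%), and among 22 matrix genes they were in 1, Col4a3 (4.55%), beside 1.23% of all genes. Havcr1, the gene of kidney injury molecule 1, was at 106, 30.1, 21.4, 51.9 and 26.9 FPKM with vehicle and 42.5, 31.6, 23.5, 31.7 and 32.8 FPKM with MaR1. The vehicle kidney RB030 was far above the rest. Lcn2, an iron-binding injury marker, was at 9.58 to 31.6 FPKM with vehicle and 7.64 to 22.6 FPKM with MaR1. Of 17 injury genes 12 were lower without and 13 with the scores, and of 22 matrix genes 13 and 20 were.

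Of 26 genes of sodium and water transport and its control, 12 were higher and 14 lower in the plain comparison. Umod, the thick ascending limb protein uromodulin, was at 415 to 988 FPKM with vehicle and 1044, 1094, 1412, 1473 and 579 FPKM with MaR1, lowest in RB039. Aqp2, the vasopressin-regulated water channel of the collecting duct, was at 87.5 to 147 FPKM with vehicle and 125 to 242 FPKM with MaR1, highest in RB037. Its estimate went from 0.64 ± 0.19 to 0.15 ± 0.50, and that of Umod from 0.64 ± 0.30 to 0.52 ± 0.82. Slc12a3 went from -0.57 ± 0.26 to 0.00 ± 0.33. Fst, the activin antagonist follistatin and itself a medulla marker, was scored without itself and went from 1.93 ± 0.60 to 1.45 ± 0.64.

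Some lipid genes were highest in RB039, the piece richest in fat. Cpt1b, the muscle and fat form of the enzyme that lets fatty acids into mitochondria, was at 1.51 to 2.36 FPKM with vehicle and 3.00, 3.72, 6.91, 4.65 and 14.3 FPKM with MaR1. Its estimate went from 1.26 ± 0.33 to -0.66 ± 0.64. Pnpla2, the lipase that opens stored triglyceride, was at 121 FPKM in RB039 and 35.4 to 50.6 FPKM in the other 9 kidneys. Of 20 fatty acid oxidation genes 9 were higher without and 16 with the scores, and of 20 oxidative phosphorylation genes 11 and 19, with medians under 0.18 throughout. Of 20 genes of cholesterol and fatty acid synthesis 14 and 12 were higher. Idi1, an enzyme of isoprenoid synthesis, went from 0.28 ± 0.13 to 0.49 ± 0.30. In the insulin-like growth factor list 8 of 10 were lower, and Igfbp3, a carrier of the factor, went from -0.52 ± 0.23 to 0.70 ± 0.46.

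Of 13 genes for Maresin 1 synthesis, its receptors and related receptors, 6 reached the filter, 2 higher and 4 lower in the plain comparison. Lgr6, a receptor gene for Maresin 1, did not reach it, at 0.69 ± 0.16 FPKM with vehicle and 0.88 ± 0.20 FPKM with MaR1. Slc14a2, the urea transporter gene of the inner medulla, was also below it, at 0.035 ± 0.043 and 1.06 ± 1.57 FPKM, with 3.83 FPKM in RB037.

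The fits above left out the hearts, because the organs differ in spread. The hearts of the same rats then entered the model, so that both organs shared 1 estimate of spread. In the kidney contrast limma called 10 genes, with or without the rat as a replicate block. Among them were Cldn23, Slc14a1, Wnt7b, Tmem184a, Ly6al, Tspan12, Tspan8, Plet1 and AA986860, each higher with MaR1, with adjusted p from 0.000638 to 0.0361 under the block. The SE was smaller than in the kidneys alone, at 0.15 against 0.19 for Cldn23, 0.22 against 0.29 for Slc14a1 and 0.21 against 0.27 for Wnt7b. These calls therefore rest on the spread shared with the hearts. With the 3 scores 0 of the 10 genes were called. Cldn23 then had an estimate of 1.03 ± 0.44 and Tspan8 one of 0.47 ± 0.29.

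**Figure D4:**
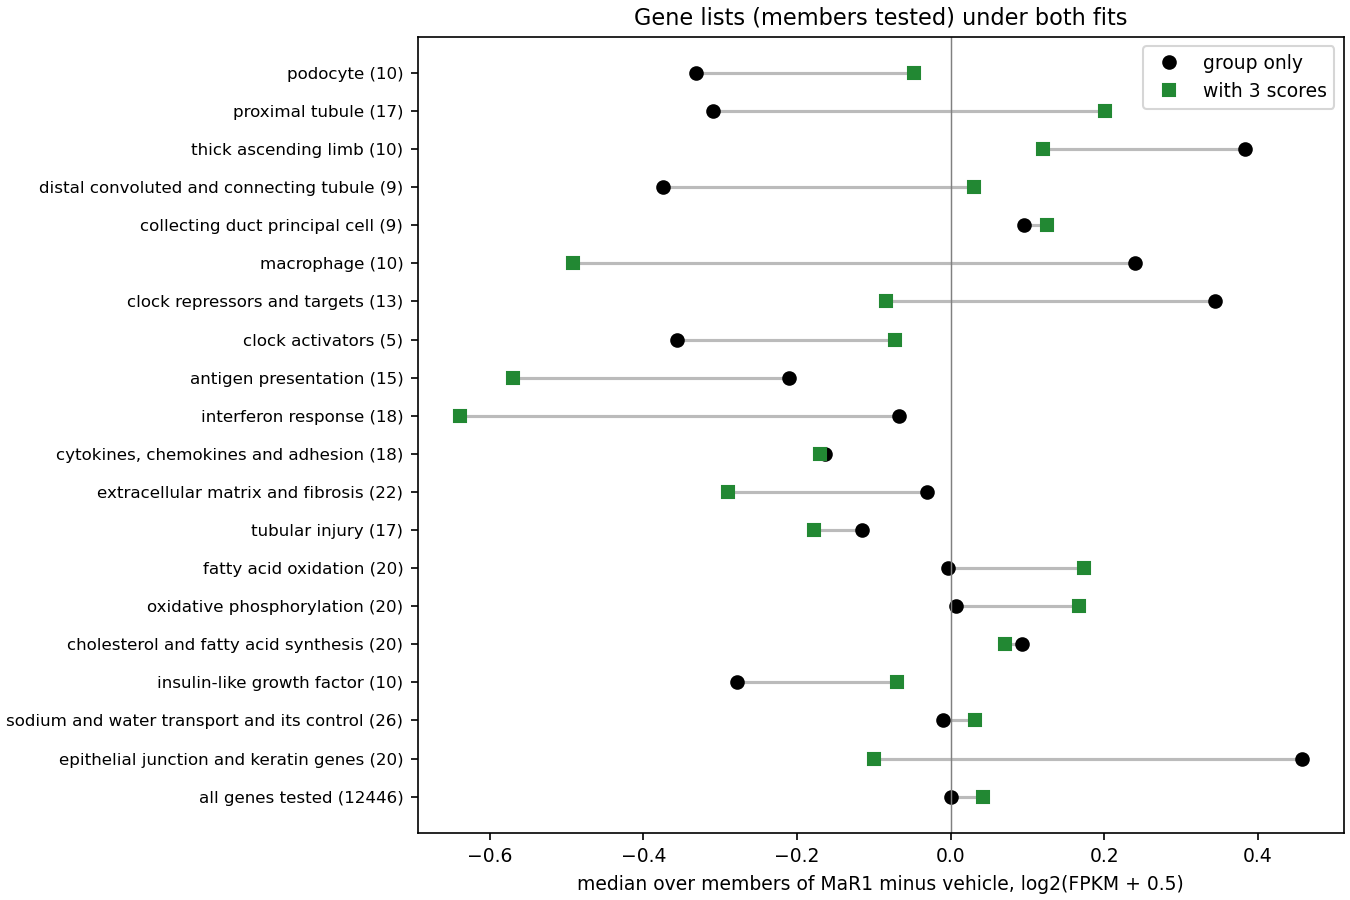
Median of MaR1 minus vehicle in log2(FPKM + 0.5) over the tested members of 19 gene lists and of all genes, black for the comparison of groups and green for the fit with 3 scores. The podocyte and thick ascending limb lists move towards 0, the proximal tubule list changes sign (-0.31 and 0.20), the principal cell list moves slightly away from 0, the antigen presentation list is below 0 in both fits (-0.21 and -0.57), and the macrophage and clock repressor lists change sign.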

How the data were processed

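Poly-A RNA was sequenced from 1 piece of kidney cortex per rat, with the rat as replicate. The authors deposited FPKM per gene. Per the submitters' processing notes, fastp (no version), HISAT2 2.0.5, StringTie 1.3.3b and featureCounts 1.5.0-p3 were used; the genome build and strand setting are not given in the sources used here. Multiplying FPKM by gene length returned whole fragments (tolerance 0.01) for 100% of 189279 values above 0, so depth is known.

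Genes averaging 1 FPKM or more over the 10 kidneys were fitted as log2(FPKM + 0.5) with limma 3.58.1 (R 4.3.3, moderated variance with trend, two-sided, Benjamini-Hochberg, adjusted p 0.05), with group only (8 residual degrees of freedom) and with 3 scores (5). A score averages the markers that reach 1 FPKM in at least 1 kidney, and a marker gene is scored without itself. The joint model used statmod 1.5.0. The members, 35 gene lists (94.3% of 528 entries matched) and tests were chosen with earlier results of these data known. Named genes are the 10 of smallest p in each direction and fit (protein coding, with a symbol, no score marker), the 2 of smallest p in each list, and fixed genes of injury, transport, clock and the receptors; the text gives part of them. Tspan8 and Plet1, called in the joint model, were named after their values were seen. Alternatives were pseudocounts of 0.1 and 1, filters, scalings, library weights, priors, voom, other scores and leaving out each kidney. The steps were tested on simulated data in which medulla, urothelium and fat content was not made to differ between groups. This does not test the fit with 3 scores where the scores are tied to treatment, as they are here. Promoters come from RefSeq (GRCr8), whose build may differ from that of the file. Figures used matplotlib 3.10.9 in Python 3.11.15. The heart was used only in the joint model. Some genes that the rule names are left out of the text, though the tests and lists include them.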

Additional observations from a re-analysis of the deposited data

Results flagged for a closer look

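In 9 of 104 groups of 5 kidneys, 1 kidney lay far from the other 4, its gap to the nearest being over 0.71 of the whole range. Chance flags about 1 in 20 groups. The vehicle kidney RB034 was highest for Upk1a (1.47 FPKM, the next 0.24), for the urothelium score (0.39, the next -0.50) and for Ciart (4.97 FPKM, the next 2.10). The vehicle kidney RB030 was highest for Tnfsf10 (17.1 FPKM, the next 13.3), and RB032 for the fat score (0.55, the next 0.30). Among the MaR1 kidneys RB039 was highest for Adipoq (120 FPKM, the next 13.2) and Pnpla2 (121 FPKM, the next 50.6). RB037 was highest for C1qc (37.7 FPKM, the next 26.6) and RB036 for Msc (1.45 FPKM, the next 0.93).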

How the results depend on the processing

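The count of called genes stayed at 0 in the plain comparison under pseudocounts, filters, scalings, weights, priors and voom. It was 1 without RB035, 284 without RB036 and RB039, and 10 with both organs in 1 model, with or without the animal as replicate block (estimated correlation 0.063). Kidney and heart with the same number come from the same rat, so the block joins the organs, while the groups compared share no rat. Genes at an unadjusted p under 0.05 in the plain comparison, 840 as reported, numbered 1331 with no filter, 493 at a mean of at least 5 FPKM, 2378 with library weights, 1929 without RB036 and RB039, and 491 to 1757 on leaving out 1 kidney. With the 3 scores the count of called genes was 1 with no filter, 3 with summed markers, 478 with the fat score only and otherwise 0. Genes at an unadjusted p under 0.05, 123 as reported, numbered 727 with no filter, 63 at a mean of at least 5 FPKM, 191 with median-of-ratios scaling, 203 with quantile normalization, 1151 with library weights, 635 with z-scored and 3973 with summed markers. They numbered 918, 1218 and 2230 with the medulla, urothelium or fat score only, 795 with podocyte and proximal tubule scores, 191 with visceral smooth muscle added and 82 to 599 on leaving out 1 kidney. The summed markers account for 81.9% of the variance of the treatment label, and the cause of the higher count was not tested. On leaving out 1 kidney, genes called beside the medulla score numbered 0 to 20, beside the fat score 6 to 782, and followers of the medulla, urothelium and fat scores 0 to 643, 5 to 34 and 3 to 726. The weighting of libraries did not converge fully in the fit with 3 scores, so its values are doubtful.

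Of 1158 alternative fold changes of 49 genes in the plain comparison, 31 had the opposite sign, and they follow by setting with their values. With a pseudocount of 0.1 these were Angptl7 -0.016. With quantile normalization these were Angptl7 -0.041. With library weights these were Pnpla2 -0.065, Angptl7 -0.31, Cyp27a1 -0.038. With limma voom on recovered fragments these were Angptl7 -0.042. Without the kidneys with Upk1a above 1 FPKM these were Mx1 0.0076, Mx2 0.015, Lcn2 0.21, Pnpla2 -0.17, Angptl7 -0.41. Without RB036 and RB039 these were Mx1 0.040, Lcn2 0.33, Pnpla2 -0.22, Tiprl -0.027, Angptl7 -0.43. On leaving out 1 kidney the ranges that crossed 0 were Rora -0.10 to 0.043, Havcr1 -0.52 to 0.048, Lcn2 -0.20 to 0.23, Pnpla2 -0.11 to 0.33, Tiprl -0.014 to 0.085, Angptl7 -0.28 to 0.15, Pdgfa -0.053 to 0.14. With the 3 scores, 194 of 1550 had the opposite sign, in 43 of 49 genes, and the cause was not tested. With a pseudocount of 0.1 these were Igf1 0.075, Slc14a1 0.54, Tmem184a 0.17, Psph -0.00096, Nphs1 -0.037, Slc12a3 -0.075. With a pseudocount of 1 these were Wnt7b -0.025, Qsox1 0.0048. With median-of-ratios scaling these were Tmem184a 0.0098, Slc12a3 -0.10, Havcr1 -0.23. With quantile normalization these were Wnt7b -0.0089, Cotl1 -0.079, Slc5a2 -0.069, Slc12a3 -0.18, Havcr1 -0.10, Qsox1 0.0056. With library weights these were Cldn23 -1.67, Tmem184a 0.94, Tpcn1 0.23, Cyp24a1 0.46, Slc5a2 -0.34, Slc12a3 -0.50, Aqp2 -0.30, Ciart 0.51, Havcr1 -5.40, Adipoq -0.96, Upk1a 0.26. With limma voom on recovered fragments these were Slc12a3 -0.0042. Without the kidneys with Upk1a above 1 FPKM these were Igf1 0.27, Tmem184a 0.33, Tspan12 -0.019, Psph -0.081, Nphs1 -0.19, Slc12a3 -0.27, Rora -0.031, Havcr1 -0.047, Upk1a 0.10. With both organs in 1 model and the animal as replicate block these were Slc12a3 -0.011. With z-scored markers these were Igf1 0.029, Tmem184a 0.22, Slc12a3 -0.27, Havcr1 -0.99, Upk1a 0.022. With summed markers these were Igf1 0.62, Slc14a1 0.87, Tmem184a 0.44, Ly6al -0.094, Cotl1 -0.60, Psph -0.58, Tnfsf10 0.056, Mx1 0.17, Mx2 0.038, Slc5a2 -0.77, Nphs1 -0.58, Slc12a3 -0.27, Umod -0.44, Cpt1b 0.57, Ciart 0.21, Rora -0.25, Lcn2 1.69, RT1-DMa 0.081, RT1-DMb 0.10, Cxcl10 0.97, C1qc 1.02, Igfbp3 -0.054, Upk1a 0.12, Qsox1 0.92, Sh3bp4 0.19, Trpv1 -0.14, Pdgfa 0.14, Cyp27a1 0.22, Tnfrsf11b -0.23. With the first principal component of the markers these were Wnt7b -0.20, Npas2 0.18, Cotl1 -0.059, Umod -0.11, Qsox1 0.14. With the medulla score only these were Igf1 1.11, Slc14a1 1.31, Tmem184a 0.39, Cotl1 -0.15, Cytip -0.26, Fst -0.73, Umod -0.29, Cpt1b 1.79, Ciart 0.72, Havcr1 -0.22, Pnpla2 1.17, Upk1a 3.65, Qsox1 0.40, Angptl7 0.84, Cyp27a1 0.053, Tnfrsf11b -0.24. With the urothelium score only these were Igf1 0.87, Slc14a1 1.29, Tmem184a 0.79, Cotl1 -0.46, Psph -0.72, Slc5a2 -0.78, Nphs1 -0.80, Slc12a3 -0.80, Cpt1b 0.77, Ciart 0.79, Rora -0.23, Havcr1 -0.25, Lcn2 0.39, C1qc 0.44, Igfbp3 -0.34, Qsox1 0.59, Sh3bp4 0.27, Trpv1 -0.32, Pdgfa 0.21, Cyp27a1 0.19. With the fat score only these were Igf1 0.84, Slc14a1 1.56, Tmem184a 0.89, Cotl1 -0.44, Psph -0.82, Mx1 0.039, Slc5a2 -0.95, Nphs1 -0.83, Slc12a3 -0.98, Cpt1b 0.79, Ciart 0.89, Rora -0.18, Havcr1 -0.29, Lcn2 0.38, C1qc 0.37, Igfbp3 -0.63, Upk1a 1.07, Qsox1 0.58, Tiprl -0.013, Sh3bp4 0.25, Trpv1 -0.33, Pdgfa 0.21, Cyp27a1 0.070. With podocyte and proximal tubule scores in place of the 3 these were Igf1 1.08, Slc14a1 1.54, Tmem184a 0.62, Cotl1 -0.30, Psph -0.24, Cytip -0.13, Nphs1 -0.043, Umod -0.0031, Cpt1b 1.67, Ciart 0.92, Havcr1 -0.34, C1qc 0.18, Igfbp3 -0.050, Pnpla2 0.75, Upk1a 3.10, Qsox1 0.58, Angptl7 0.55, Cyp27a1 0.16, Tnfrsf11b -0.16. With the visceral smooth muscle score added these were Tmem184a 0.0031. With medulla and fat scores only these were Igf1 0.016, Qsox1 0.055. On leaving out 1 kidney the ranges that crossed 0 were Cldn23 -1.36 to 2.24, Igf1 -1.94 to 0.88, Slc14a1 -1.87 to 2.11, Wnt7b -0.75 to 1.81, Tmem184a -0.14 to 1.61, Tspan12 -0.40 to 1.11, Tpcn1 -0.21 to 0.21, Npas2 -1.69 to 0.84, Psph -0.30 to 1.01, Slc5a2 -0.11 to 0.17, Slc12a3 -0.77 to 0.17, Aqp2 -1.04 to 0.57, Cpt1b -2.18 to 1.66, Ciart -1.99 to 1.37, Rora -0.090 to 0.29, Havcr1 -5.31 to 0.94, Adipoq -0.19 to 0.81, Qsox1 -0.35 to 0.056.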
